A study of Saccharomyces cerevisiae with 4 samples.

Results

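The genes described here encode the protein components of the small (40S) subunit of the cytosolic ribosome in budding yeast, Saccharomyces cerevisiae. They are the 56 open reading frames (ORFs) named RPS0A to RPS31, taken by their ORF names out of 6678 ORFs in the table and without regard to their values. They form 32 families, of which 24 are pairs of paralogs (an A and a B copy) and 8 are single-copy genes. Transcript levels came from sequencing of total RNA in 4 libraries, 1 per group. Wild type was SEY6210, a haploid MATα strain that is GAL and carries a mutant leu2 allele with ura3-52, his3-Δ200, trp1-Δ901, suc2-Δ9 and lys2-801, and the mutant was its derivative JMY047, in which PHO23 was replaced (pho23Δ::HIS5). The growing cells of both genotypes were in mid-log phase in YPD, a rich medium, and the starved cells had spent 2 h in SD-N, a medium without nitrogen. Nitrogen loss cannot be told apart from the other differences between these media. The mutant carries a HIS5 marker that wild type lacks, and nothing in the labels gives more than 1 strain per genotype. With 1 library per group, no difference below has a replicate check and no test was possible.

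Ribosomal protein genes are among the most strongly transcribed genes of growing yeast, and cells adjust them together to the supply of nutrients. The transcription factor Rap1 binds their promoters and recruits Fhl1 and Ifh1, whose activity depends on the TORC1 kinase, which senses nitrogen. The PHO23 protein belongs to Rpd3L, a histone deacetylase complex, and its enzyme Rpd3 has been linked to repression of ribosomal protein genes when TORC1 is inhibited. Most yeast RPS genes survive as a pair of copies from an ancient whole-genome duplication, and both copies encode nearly the same protein.

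The values are RPKM, reads normalised to the length of the ORF and to the depth of the library. RPKM is a share of a library, so less RNA per cell and fewer cells with that RNA cannot be told apart, and neither can a lower RPS level and a higher level of other transcripts. PHO23 stood at an RPKM of 12.3 in growing and 23.4 in starved wild type, against 0.13 and 0.0546 in the deletion, as the genotypes on the labels say. Depth could only be estimated roughly from the spacing of low values, at between 19600000 and 27400000 reads per library. On that estimate, and with spliced coding lengths, the smallest RPS count was 133 reads, for RPS22B in starved wild type. The next smallest was 287. Whether the deposited RPKM of genes with introns used the spliced length was not given. The 95% counting interval of a fold was at most 0.28 wide on either side on the log2 scale and covers counting error only.

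A sequence often found in promoters of ribosomal protein genes is the Rap1 core, searched here as ACCCNNACA on both strands in the 500 bases before each start codon. It was present in 18 of the 56 RPS windows (32.1%) and in 5.47% of the 6000 such windows of the genome. The single-copy genes RPS2 and RPS13 held it, and their sequences are shown because single-copy genes have no copy to share reads with. The genome is RefSeq's R64 assembly, which is the sacCer3 build of the deposited alignments. Both windows lie on the plus strand, which is the gene's strand, and overlap no annotated gene. They are chrVII:277193-277273 for RPS2 and chrIV:579192-579272 for RPS13. Capitals mark the core, whose first base lies 388 and 230 bases before the start codon, in that order.
RPS2: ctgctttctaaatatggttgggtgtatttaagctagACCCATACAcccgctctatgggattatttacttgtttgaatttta
RPS13: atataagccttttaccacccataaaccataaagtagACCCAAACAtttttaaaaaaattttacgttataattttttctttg

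How well paralogs can be told apart by short reads depends on their sequence. The first 120 bases of the spliced coding sequence are shown for RPS6, a pair that shares most of its short stretches, and for RPS27, whose balance between copies differed most between libraries. Capitals mark the bases at which both copies differ, 1 in RPS6 and 14 in RPS27.
RPS6A: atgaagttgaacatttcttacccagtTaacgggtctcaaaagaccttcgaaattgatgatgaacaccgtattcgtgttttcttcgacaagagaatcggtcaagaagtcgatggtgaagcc
RPS6B: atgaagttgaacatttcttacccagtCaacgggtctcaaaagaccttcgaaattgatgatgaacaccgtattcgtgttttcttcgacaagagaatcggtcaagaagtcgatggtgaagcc
RPS27A: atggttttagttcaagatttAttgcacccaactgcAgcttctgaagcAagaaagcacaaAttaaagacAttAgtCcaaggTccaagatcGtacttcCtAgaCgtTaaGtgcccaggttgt
RPS27B: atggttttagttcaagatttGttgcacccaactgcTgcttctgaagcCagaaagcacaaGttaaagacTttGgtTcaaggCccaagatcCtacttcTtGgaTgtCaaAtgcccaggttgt
Over the whole coding sequence, 72.1% of all stretches of 50 bases were present in both copies of RPS6. The share was 46.8% for RPS4 and 38.2% for RPS24. In 9 pairs, RPS27 among them, no stretch of 50 bases was shared. The read length and the treatment of reads with several matches are unknown here. A length of 50 bases is therefore only a yardstick, and levels of single copies of RPS6, RPS4 and RPS24 are uncertain.

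In growing wild type the 56 RPS genes had a median level of 3529 RPKM, from 338 for RPS22B to 8442 for RPS12. They made up 17.3% of the summed RPKM of all ORFs there and 17.1% in the growing deletion. The share was 3.52% in wild type after starvation and 8.88% in the deletion after it. The median member level followed the same order, with 3319 RPKM in the growing deletion, 529 RPKM in starved wild type and 1566 RPKM in the starved deletion. The growing libraries were thus close to each other, and the starved deletion lay between them and starved wild type.

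**Figure D1:**
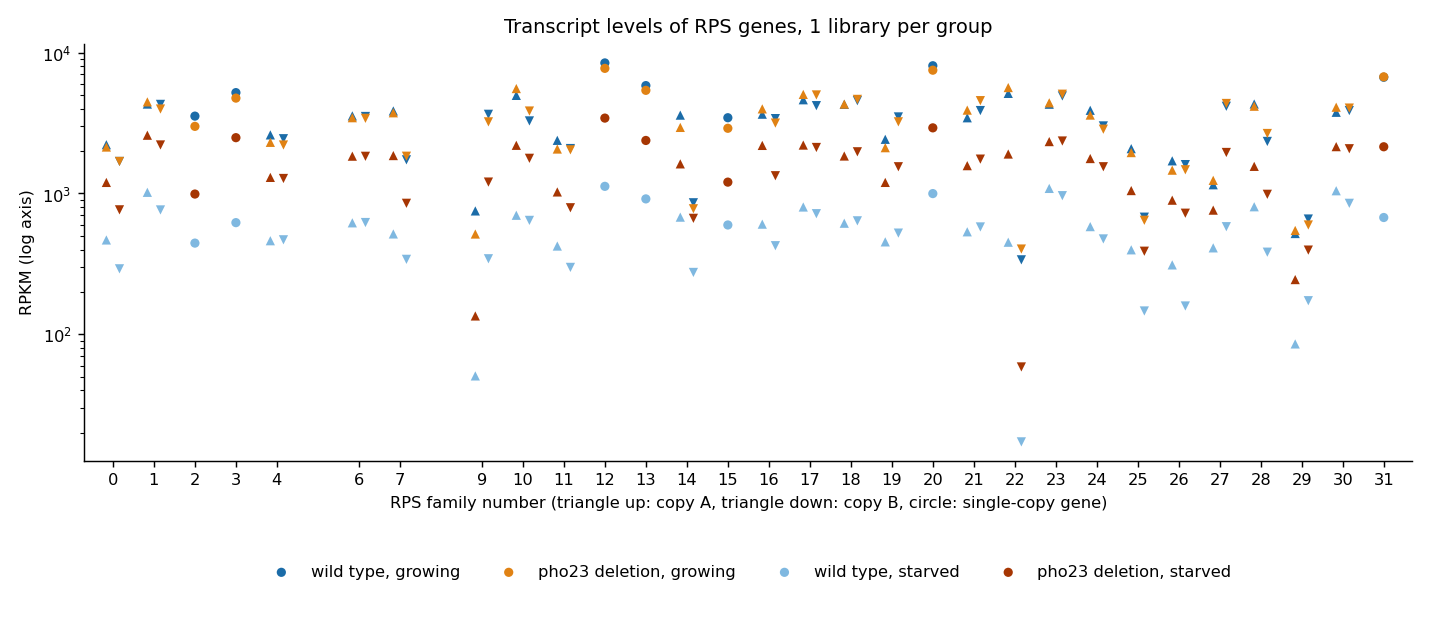
RPKM (log axis) of RPS genes by family number in the 4 libraries, 1 point per gene and library; upward triangles are A copies, downward triangles B copies and circles single-copy genes. In each family shown the starved wild-type points are the lowest of their gene and the starved deletion points lie between these and the growing ones.

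The single-copy genes stood at the top of the range, holding 6 of the 8 highest levels in growing wild type. Their median level there was 6254 RPKM, against 3421 RPKM for the 48 paired genes. When both copies of a pair were summed, the paired families reached a median of 5749 RPKM, close to the single-copy genes. In both starved libraries the order was different. The medians in wild type were 795 RPKM for single-copy genes and 984 RPKM for summed pairs. In the starved deletion they were 2433 and 2712 RPKM. RPS29, which encodes a small zinc-binding protein of the head of the subunit, was the lowest family in each library, with a summed level of 1178 RPKM in growing wild type and 259 RPKM in starved wild type. RPS23, whose protein sits at the decoding centre, had the highest summed level in growing wild type, 9220.5 RPKM.

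Starvation of wild type answers how far the small-subunit genes respond to the shift to SD-N. All 56 were at least 2-fold lower after it, where 13.3% of 5956 eligible ORFs were (those that reached an RPKM of 10 in either library; folds are log2 of RPKM + 1). The median log2 fold was -2.54, which is 5.80-fold lower, and the quartiles were -2.83 and -2.38. The median over all eligible ORFs was 0.53 on the same scale. With median-of-ratios scaling, which sets the typical ORF near 0, the RPS median became -3.07. Of all eligible ORFs, 1950 were past 2-fold upwards and 795 downwards as deposited, which became 1131 and 1254 with that scaling.

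The genes furthest below the median were both copies of RPS22 and of RPS9. RPS22B, on chrXII:856442-857317, had 338 RPKM in growing wild type, 403 RPKM in the growing deletion, 17.2 RPKM in starved wild type and 58.7 RPKM in the starved deletion. It had the lowest level of all members in each library, and its starved wild-type level was 19.6-fold below the growing one (log2 fold -4.22). RPS22 encodes a body protein that binds the central domain of the 18S rRNA. An annotated small nucleolar RNA gene, SNR44, lies within RPS22B on the same strand, and whether its reads were counted for RPS22B was not given.
RPS22A, on chrX:74910-75302, had 5131, 5645, 451 and 1905 RPKM in the same order of libraries, a log2 fold of -3.51 in wild type. RPS9A, on chrXVI:404950-406044, had 751, 515, 50.7 and 135 RPKM (log2 fold -3.86), and RPS9B, on chrII:604508-605508, had 3646, 3222, 344 and 1204 RPKM (log2 fold -3.40). RPS9 proteins help to set the accuracy of decoding. In all 4 genes the starved wild-type library was the lowest.

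At the other end, RPS27A, on chrXI:158613-159212, was 2.80-fold lower in starved wild type, with 1153, 1239, 411 and 761 RPKM in growing wild type, the growing deletion, starved wild type and the starved deletion. Its log2 fold of -1.49 was the smallest of the 56 in size. RPS14B, a platform protein gene on chrX:73787-74611, followed at -1.64 with 859, 778, 275 and 666 RPKM. RPS30A, whose protein lies on the shoulder of the subunit, had 3768, 4094, 1045 and 2149 RPKM and a log2 fold of -1.85. RPS29B had 658, 597, 173 and 396 RPKM and a log2 fold of -1.92. Even these genes were lower in starved wild type than in the 3 other libraries.

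RPS14B and RPS22A are neighbours on chromosome X. They point towards each other with 298 bases between their coding spans, yet had log2 folds of -1.64 and -3.51 in starved wild type. There were 2 further pairs of nearby RPS genes. RPS17A and RPS18B lie 2060 bases apart on chromosome XIII, with 1 gene between them. RPS17B and RPS18A lie 4369 bases apart on chromosome IV, with 2 genes between them. These 4 genes had log2 folds between -2.83 and -2.53 in starved wild type.

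**Figure D2:**
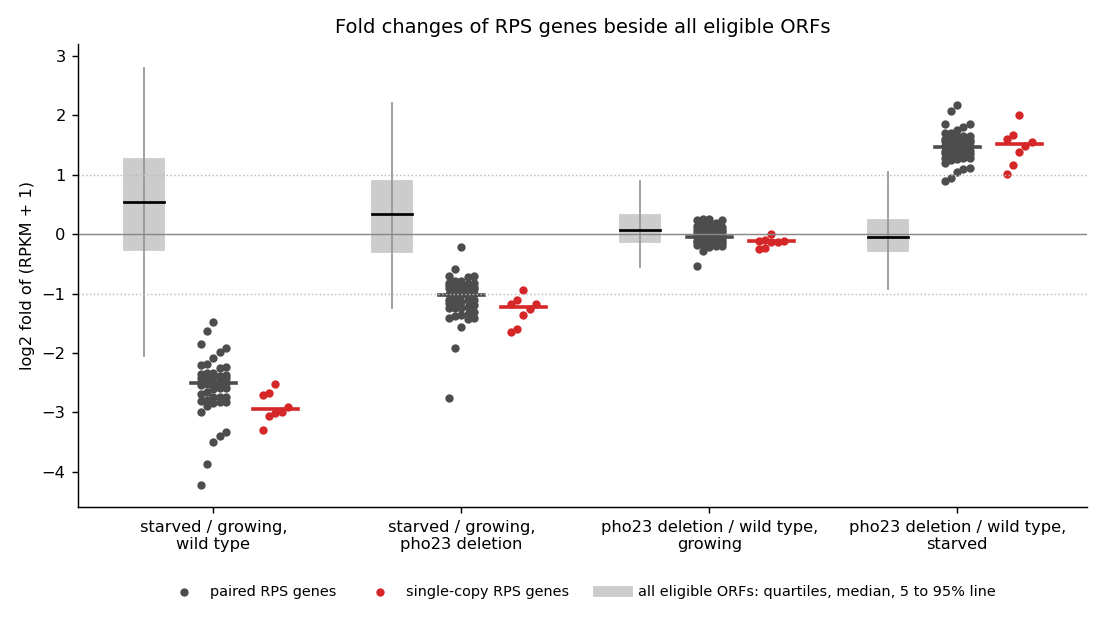
Log2 folds of RPKM + 1 in the 4 comparisons, with 1 point per paired (dark) or single-copy (red) RPS gene, a bar at the median of each class, and a box with quartiles, median and a line from the 5th to the 95th percentile for all eligible ORFs; dotted lines mark 2-fold. RPS medians were -2.54, -1.08, -0.054 and 1.48 from left to right, beside 0.53, 0.34, 0.065 and -0.042 for all ORFs.

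Among the 8 single-copy genes, the median log2 fold in starved wild type was -2.95, against -2.51 for the 48 paired genes. The single-copy range, -3.30 to -2.53, lay inside the range of the paired genes, -4.22 to -1.49. Summing both copies of each pair left the paired median at -2.52. How reads shared between copies were counted is not known, so their part in this difference was not tested.

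RPS31 (YLR167W, chrXII:498947-499405) had 6679 RPKM in growing wild type, 6726 RPKM in the growing deletion, 675 RPKM in starved wild type and 2145 RPKM in the starved deletion. It encodes a ribosomal protein made as a fusion to ubiquitin. Its log2 fold of -3.30 in starved wild type was the lowest of the single-copy genes. RPL40A and RPL40B, which encode the ubiquitin fusions of the large subunit, had log2 folds of -2.26 and -2.30. UBI4, which encodes a chain of ubiquitin units and is known to rise under stress, had 97.0, 205, 969 and 782 RPKM in the same order of libraries, so it was highest in starved wild type, where RPS31 was lowest. These genes all encode ubiquitin, but 0% of the stretches of 50 bases in the RPS31 coding sequence were found elsewhere. The read length is unknown, and how any shared reads were divided was not given. The part of shared reads in the levels of these genes was not tested.

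RPS3 (YNL178W, chrXIV:302680-303402), whose protein lines the mRNA entry channel, had 5196, 4751, 621 and 2489 RPKM in growing wild type, the growing deletion, starved wild type and the starved deletion. Its log2 fold under starvation was -3.06 in wild type and -0.93 in the deletion. RPS2 (YGL123W, chrVII:277617-278381), another protein of the entry channel, had 3539, 2994, 444 and 990.3 RPKM. Its log2 folds were -2.99 and -1.60, so RPS2 and RPS3 were close in wild type and further apart in the deletion.

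RPS12 (YOR369C, chrXV:1028194-1028625), which encodes a protein of the beak of the subunit, had 8442, 7727, 1123 and 3427 RPKM in that order and was the highest member in each of the 4 libraries. RPS20 (YHL015W, chrVIII:75412-75777), encoding a head protein, had 8063, 7498, 998 and 2922 RPKM. Both had their lowest level in starved wild type, with log2 folds of -2.91 and -3.01 there under starvation.

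RPS13 (YDR064W, chrIV:579458-580452), encoding a body protein, had 5829, 5395, 915 and 2377 RPKM and is the only single-copy RPS gene whose coding sequence is interrupted by an intron. RPS15 (YOL040C, chrXV:253149-253577), encoding a head protein needed for export of the subunit precursor from the nucleus, had 3448, 2901, 597 and 1203 RPKM. Its log2 fold in starved wild type, -2.53, was the smallest in size of the single-copy genes. In all 8 single-copy genes the 4 libraries kept 1 order of conditions, with both growing libraries highest, the starved deletion next and starved wild type lowest.

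In the deletion, 33 of the 56 RPS genes were at least 2-fold lower after starvation, where 8.77% of 5863 eligible ORFs were, and all 56 were below 0. The median log2 fold was -1.08, or 2.12-fold lower, from -2.76 for RPS22B to -0.23 for RPS14B. The count depends on the scaling, since many genes lie near 2-fold. It was 54 with median-of-ratios scaling, 49 with upper-quartile scaling and 21 when all libraries were set to the same sum. Of all eligible ORFs, 1311 were past 2-fold upwards and 514 downwards as deposited, against 838 and 926 with median-of-ratios scaling. Upper-quartile scaling gave 1029 and 748, and setting all libraries to the same sum gave 1586 and 365.

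The 7 single-copy genes counted at 2-fold were all but RPS3. Of the paired genes, 26 of 48 were counted. Single-copy genes had a median log2 fold of -1.23 and paired genes of -1.02. RPS9A and RPS22B were again the lowest, at -1.92 and -2.76, followed by RPS31 at -1.65 and RPS2 at -1.60. RPS14B, RPS29B, RPS27A and RPS26A had the folds nearest to 0, at -0.23, -0.59, -0.70 and -0.71.

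Set side by side, the starvation folds of the 56 genes were correlated between the genotypes (Pearson r 0.81, Spearman rho 0.72). The folds of both genotypes use no library in common, but paired genes share sequence and all genes share the depth of their libraries, so the correlation is a description only. The fold was smaller in size in the deletion for each of the 56 genes. The difference, deletion minus wild type, had a median of 1.49 and ran from 0.78 for RPS27A to 2.30 for RPS26B. Over all 6034 ORFs the median difference was -0.15. No test of this difference was possible with 1 library per group.

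**Figure D3:**
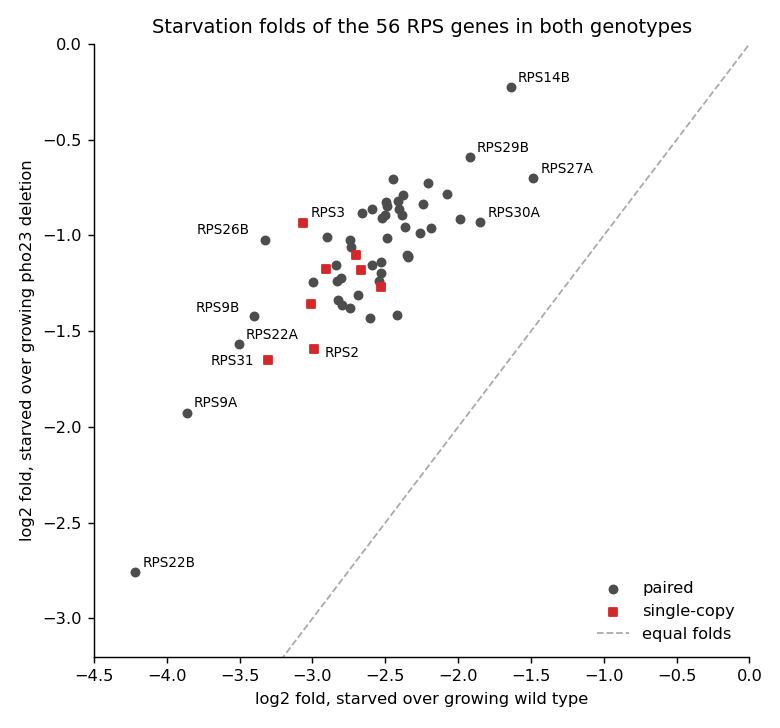
Log2 fold of starved over growing cells in wild type (horizontal) and in the pho23 deletion (vertical) for the 56 RPS genes, with single-copy genes as red squares; the dashed line marks equal folds. All points lie above the line, with RPS22B at -4.22 and -2.76 and RPS14B at -1.64 and -0.23 near the ends.

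In growing cells the comparison of genotypes asks whether the RPS genes differ before starvation. None of the 56 was 2-fold different, where 3.95% of 5439 eligible ORFs were 2-fold or more higher and 2.08% lower in the deletion. The median log2 fold was -0.054, beside 0.065 over all eligible ORFs, and 52 of the 56 lay within 0.25 of 0. Of the 56, 34 were below 0, where 41.7% of eligible ORFs were. That number was 44 with median-of-ratios scaling, under which the RPS median became -0.15. This scaling shifted all folds by -0.094, and the median over all eligible ORFs became -0.028.

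RPS9A stood apart from the others, at 751 RPKM in wild type and 515 RPKM in the deletion, a log2 fold of -0.54. RPS14A followed at -0.29, with 3596 and 2943 RPKM. RPS15 and RPS2 were at -0.25 and -0.24. The highest were RPS22B and RPS17B at 0.25 each, then RPS21B and RPS10B at 0.23 each. RPS17B, encoding a head protein, had 4199.9 RPKM in wild type and 5003 RPKM in the deletion, and RPS21B had 3876 and 4557 RPKM. Whether differences of this size exceed the spread between cultures cannot be told from these libraries.

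These small folds varied with base composition. Across the 56 genes the growing genotype fold correlated with the GC content of the coding sequence (Pearson r -0.56, Spearman rho -0.61), against an r of 0.036 over 5048 eligible ORFs with a sequence. The points share both libraries and pairs share sequence, so no p-value is given. The 28 genes with the higher GC content had a median of -0.12 with 4 above 0, and the 28 with the lower content a median of 0.043 with 18 above 0. Coding length gave an r of -0.40. In starved cells the correlation of the genotype fold with GC was -0.35. The part of base composition in these folds was not tested.

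In starved cells the genotypes separated. Of the 56 RPS genes, 54 exceeded their starved wild-type level 2-fold or more in the deletion, where 5.3% of 5976 eligible ORFs did, and all 56 were above 0, where 45% were. The median log2 fold was 1.48, or 2.78-fold, with quartiles of 1.31 and 1.60. The median over all eligible ORFs was -0.042. This comparison and starvation of wild type share the starved wild-type library, so a low level there enters both.

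The highest fold belonged to RPS26B (chrV:423952-424311), whose protein contacts the mRNA near the exit channel. It had 1602 RPKM in growing wild type, 1472 RPKM in the growing deletion, 159 RPKM in starved wild type and 724 RPKM in the starved deletion, so that the starved deletion was 4.56-fold above starved wild type. RPS22A was 4.23-fold higher and RPS3 4.01-fold higher. RPS16A, whose protein reaches the P site, had 3653, 3984, 605 and 2192.5 RPKM in the 4 libraries and was 3.62-fold higher. For each of them the starved deletion still lay below both growing libraries.

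The 2 genes under 2-fold were RPS27A at 1.85-fold and RPS28A at 1.94-fold. RPS28A, encoding a small protein near the mRNA exit, had 4315 RPKM in growing wild type, 4161 RPKM in the growing deletion, 805 RPKM in starved wild type and 1557 RPKM in the starved deletion. RPS15 was at 2.01-fold and RPS30A at 2.06-fold. Single-copy and paired genes did not separate here, with medians of 1.52 and 1.46. Across the 56 genes, the genotype folds in growing and starved cells were nearly unrelated (Pearson r 0.15, Spearman rho 0.22).

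The paralogs of a pair mostly kept their order across libraries. In 19 of 24 pairs the same copy was higher in all 4 libraries, the A copy in 13 and the B copy in 6. In each library 6 pairs differed at least 2-fold between copies. Neither count is given here for the large-subunit pairs, so how usual such an imbalance is cannot be read from it. The largest ratios in growing wild type were those of RPS22 (log2 of A over B 3.92), RPS9 (-2.28) and RPS14 (2.07). The smallest were those of RPS1 (0.0069), RPS6 (0.014) and RPS30 (-0.040). RPS1A and RPS1B had 4309 and 4288 RPKM in growing wild type and 1019 and 764 RPKM in starved wild type, so that a small difference opened on starvation of wild type. In the deletion their log2 ratio was already 0.17 in growing cells and was 0.23 in starved cells. RPS6A and RPS6B, targets of a kinase pathway under TORC1, stayed alike with 3552 and 3519 RPKM in growing wild type and 619 and 622 RPKM in starved wild type, but their sequences are hard to tell apart.

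**Figure D4:**
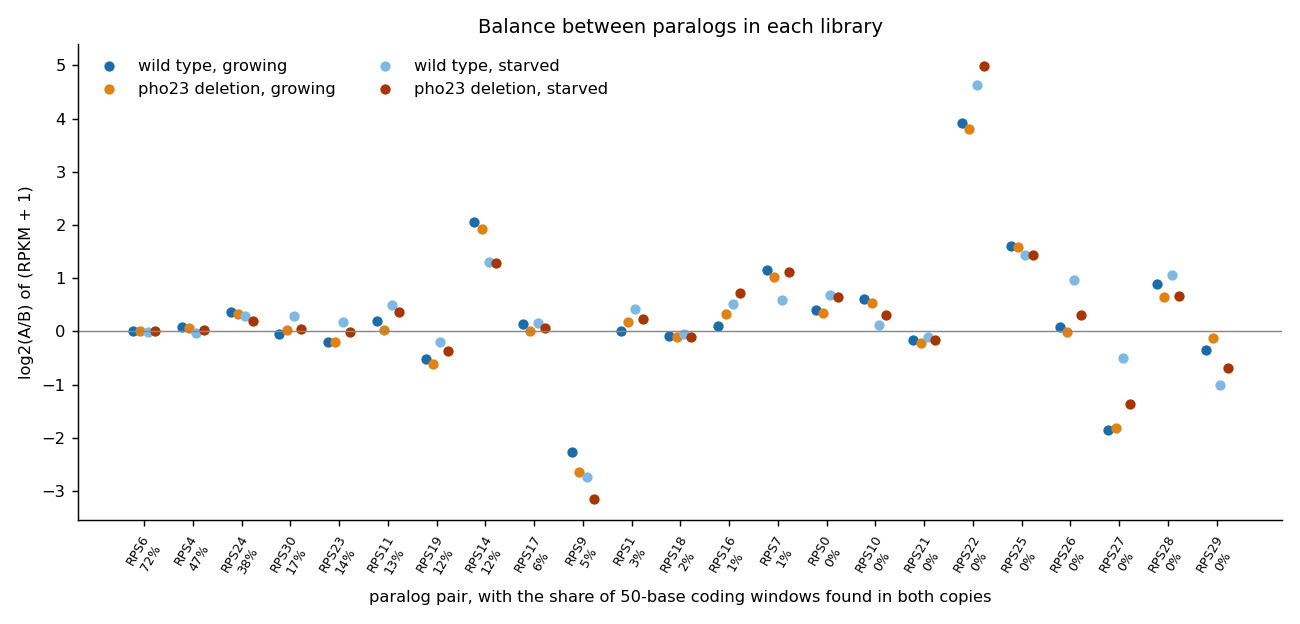
Log2 of the A over the B copy (RPKM + 1) of RPS pairs in each of the 4 libraries, ordered by the share of 50-base coding windows found in both copies, which is printed under each name. Pairs at the left with over 30% shared lie within 0.37 of 0 in all libraries, and the spread between libraries was widest for RPS27 and RPS22.

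Starvation of wild type moved the ratio of copies by 0.5 or more on the log2 scale in 6 of 24 pairs, where 14.3% of 35 large-subunit pairs did. The 6 were RPS27, RPS26, RPS14, RPS22, RPS29 and RPS7. RPS27, encoding a zinc-finger protein of the platform, differed most. RPS27B (chrVIII:147871-148669) had 4158 RPKM in growing wild type, 4352 RPKM in the growing deletion, 581 RPKM in starved wild type and 1954 RPKM in the starved deletion. RPS27A thus supplied 21.7% of the summed RPKM of the pair in growing wild type and 41.4% in starved wild type, and 22.2% and 28.04% in the deletion. The A copy was the lower one in each library, and the movement was 1.35 in wild type and 0.45 in the deletion.

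In RPS26 the copies were nearly equal in growing cells, at 1704 RPKM for RPS26A and 1602 RPKM for RPS26B in wild type. In starved wild type they were at 311 and 159 RPKM, a movement of 0.88. In the starved deletion RPS26A was at 896 RPKM and RPS26B at 724 RPKM. The starved wild-type library was therefore the one in which this pair was least balanced. No stretch of 50 bases is shared by the copies of RPS26 or of RPS27.

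RPS14A had 3596 RPKM in growing wild type, 2943 RPKM in the growing deletion, 679 RPKM in starved wild type and 1621 RPKM in the starved deletion. Its share of the pair was 80.7%, 79.1%, 71.2% and 70.9% in that order, so that RPS14B contributed more after starvation in both genotypes. The RPS14 protein is known to repress RPS14B by binding its RNA. For RPS29 the B copy gained, with the A copy supplying 44.1% in growing and 33.0% in starved wild type. For RPS7, the A copy had 3851, 3738, 516 and 1857 RPKM and the B copy 1732, 1837.5, 341 and 851 RPKM, so its ratio was smallest in starved wild type.

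In the deletion, starvation moved 4 of 24 pairs by 0.5 or more, where 11.4% of the large-subunit pairs did. These were RPS22 at 1.19, RPS14 at -0.63, RPS29 at -0.56 and RPS9 at -0.51. RPS22A supplied 93.8% of its pair in growing wild type and 97.0% in the starved deletion. RPS9A supplied 17.1%, 13.8%, 12.8% and 10.1% of its pair in growing wild type, the growing deletion, starved wild type and the starved deletion. The minor copy of both pairs was thus at its smallest share in the starved deletion.

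Between genotypes, no pair moved by 0.5 or more in growing cells, where 0% of the large-subunit pairs did. The largest movement was that of RPS9, at -0.37. In starved cells 3 of 24 did, where 5.71% of the large-subunit pairs did. They were RPS27 at -0.86, RPS26 at -0.66 and RPS7 at 0.53, all 3 of which had also moved under starvation in wild type; both comparisons use the starved wild-type library. RPS28 came next at -0.41.

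Pairs alike in sequence had similar levels. The 4 pairs with over 30% of windows shared, which include RPS6, RPS4 and RPS24, moved by at most 0.14 in any comparison, while the 9 pairs with no shared window moved by up to 1.35. RPS4A, for example, had 2604 RPKM in growing wild type, 2306 RPKM in the growing deletion, 462 RPKM in starved wild type and 1299.97 RPKM in the starved deletion. RPS4B had 2446, 2208, 469 and 1277 RPKM. In such a pair, equal expression and an equal division of shared reads cannot be told apart.

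Grouping the genes by the place of their protein gave small differences. The 22 genes of the head of the subunit had a median log2 fold of -2.60 under starvation in wild type and the 34 of the body and platform -2.50. In starved cells the genotype medians were 1.53 and 1.40. Families with a counterpart in bacteria, 24 genes, had -2.69 in starved wild type, and the 32 genes found only in archaea or eukaryotes had -2.50. The coding sequence of 36 genes is interrupted by an intron, and their median of -2.54 was close to the -2.56 of the 20 others. Within the 20 uninterrupted genes, the 7 single-copy ones had -2.99 and the 13 paired ones -2.42.

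The 18 genes with a Rap1 core in their promoter window had a median log2 fold of 1.48 between starved genotypes, and those without it also 1.48. Under starvation in wild type these medians were -2.63 with the core and -2.53 without it. GACGCA, the Fhl1 core, was in 10.7% of RPS windows and 10.9% of all windows. GATGAG, the PAC motif bound by Dot6 and Tod6, was in 21.4% and 28.3%, and the 12 RPS genes with it had a median log2 fold of 1.59 between starved genotypes, against 1.40 without it. AAATTTT, the core bound by Stb3, was in 42.9% and 34.1%, so it was the commonest of these in the RPS windows together with the Abf1 motif (42.9% and 46.1%). The 24 genes with the Stb3 core had a median log2 fold of 1.40 between starved genotypes, against 1.499 without it. GGCGGC, the core of URS1 through which Ume6 recruits Rpd3L, was in 12.5% and 9.57%. A match is a description of letters within 500 bases of the start codon and shows no binding.

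The large subunit gave almost the same values. The 82 genes with RPL or RPP symbols include RPP1, which encodes a subunit of RNase P and is no ribosomal protein gene. With or without it, they had median log2 folds of -2.49 under starvation in wild type, -1.01 in the deletion, -0.071 between growing genotypes and 1.43 between starved genotypes. Of the 81 others, all were 2-fold or more lower in starved wild type, where 13.3% of eligible ORFs were, and 78 were past 2-fold upwards between starved genotypes, where 5.3% were. ASC1, which encodes a scaffold protein bound to the head of the small subunit, had 3617 RPKM in growing wild type, 3388 RPKM in the growing deletion, 186 RPKM in starved wild type and 441 RPKM in the starved deletion. Its log2 fold under starvation in wild type, -4.27, was lower than that of any RPS gene, and its genotype fold in starved cells, 1.24, lay within the RPS range.

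The small subunit of the mitochondrial ribosome had a median near the cytosolic one under starvation in the deletion and between growing genotypes, but not in the other comparisons. Its 32 genes had medians of -1.13 and -1.08 under starvation in wild type and the deletion, with 19 and 18 of them at least 2-fold lower (13.3% and 8.77% of eligible ORFs). Between growing genotypes the median was -0.071. Between starved genotypes the median was -0.10, and no gene was 2-fold different. RSM26, for example, had 200.4 RPKM in growing wild type, 196.6 RPKM in the growing deletion, 37.2 RPKM in starved wild type and 41.5 RPKM in the starved deletion. The list holds KGD4 under an older name, YMR31; it now belongs to an enzyme of the citric acid cycle, and it was the 1 gene at least 2-fold higher in starved wild type (log2 fold 2.29).

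**Figure D5:**
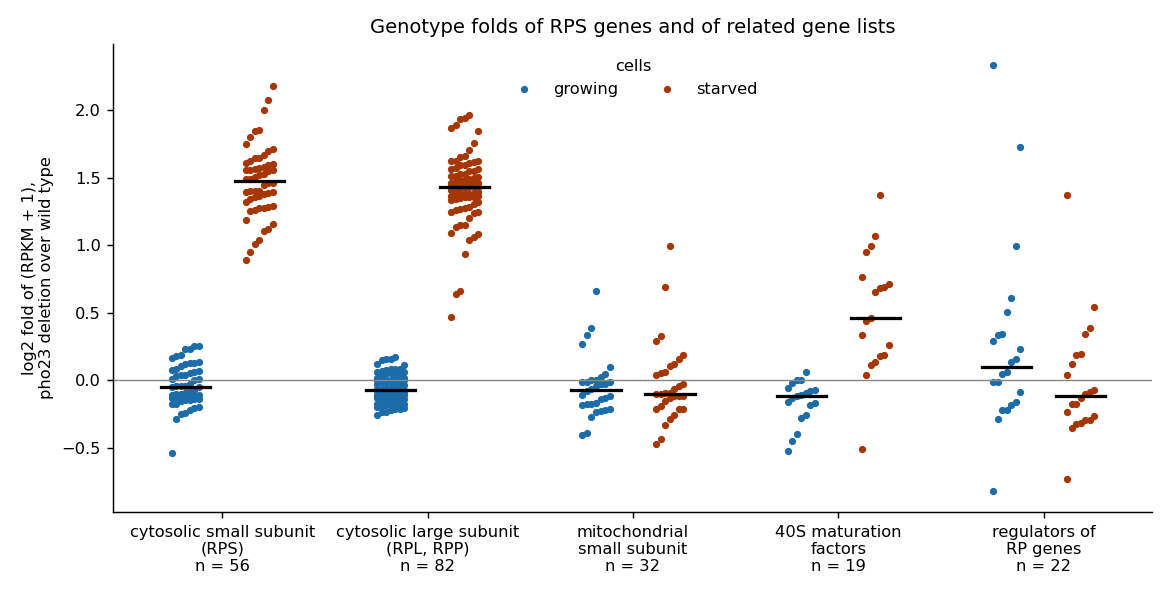
Log2 fold of RPKM + 1, pho23 deletion over wild type, in growing (blue) and starved (brown) cells for the RPS genes and 4 related gene lists, 1 point per gene with a bar at the median. In starved cells the medians were 1.48 for RPS, 1.43 for large-subunit, -0.10 for mitochondrial small-subunit, 0.46 for maturation and -0.12 for regulator genes.

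The 19 factors that mature the small subunit lay between these groups in the median between starved genotypes, at 0.46. Under starvation their medians, -1.07 in wild type and -0.59 in the deletion, were nearer to 0 than those of both groups, with 11 and 4 genes at least 2-fold lower (13.3% and 8.77% of eligible ORFs). LTV1, which helps to form the beak of the precursor, had 173.1, 172.8, 39.5 and 104.0 RPKM in growing wild type, the growing deletion, starved wild type and the starved deletion. ENP1, its partner in the precursor, had 179.8, 131.0, 21.6 and 46.4 RPKM. Of the 19, these 2 were the ones past 2-fold upwards between starved genotypes, where 5.3% of eligible ORFs were, at 1.37 and 1.07 on the log2 scale.

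The 22 regulators of ribosomal protein genes had medians near those of all ORFs, at 0.43, 0.33, 0.10 and -0.12 in the 4 comparisons. RAP1 had 29.2, 32.6, 33.4 and 34.3 RPKM in growing wild type, the growing deletion, starved wild type and the starved deletion. FHL1 had 15.1, 13.4, 10.7 and 9.39 RPKM, and IFH1 had 24.5, 24.2, 30.8 and 33.6 RPKM. None of the 3 was 2-fold different in a comparison. TOD6, a repressor of ribosome synthesis genes that is known to recruit Rpd3L, had 85.7, 80.6, 35.2 and 92.8 RPKM. Its log2 fold was -1.26 under starvation in wild type and 1.37 between starved genotypes. In starved wild type it was the 1 regulator 2-fold lower of the 20 eligible, where 13.3% of ORFs were, and 6 were 2-fold higher, where 32.7% of ORFs were. Between starved genotypes it was the 1 regulator 2-fold higher of 20, where 5.3% of ORFs were. TPK2, which encodes a catalytic subunit of protein kinase A, had 18.3 RPKM in growing wild type and 63.1 RPKM in the growing deletion, a log2 fold of 1.73. The part of these regulators in the levels of RPS genes was not tested.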

How the data were processed

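Total RNA of 4 yeast libraries was sequenced. Per the submitters' processing notes, CASAVA 1.8.2 and Bowtie2 2.1.0 were used with the genome build sacCer3. The authors deposited 1 table of RPKM per ORF. The counting tool, annotation, use of strand and handling of reads with several matches were not given in the sources used here. Overlapping genes and paralogs are therefore uncertain.

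A fold is the log2 ratio of RPKM + 1 between 2 libraries, with no further scaling. ORFs were eligible when either library reached an RPKM of 10. An ORF was counted at 2-fold or more. With 1 library per group no test was run, and counts at 2-fold are read against the share of all eligible ORFs past the same threshold. The ratio of paralogs was log2((A + 1)/(B + 1)), and a movement of 0.5 or more was counted. Symbols, positions and sequences came from RefSeq R64, which holds 5997 of the 6678 ORFs. All 56 members were in the table.

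Depth was estimated from the spacing of RPKM times length below 1, searched from 0.03 to 0.2; between 41.2% and 57.1% of these values fell within 0.1 of a whole number, against 19.8% to 25.6% with a spacing 3% off. The lower bound was set after smaller spacings, which would give more reads, had also come up for both deletion libraries, so the depth is rough. Counting intervals are exact binomial.

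The members and lists were chosen with earlier results of these data known. Genes given with all 4 values are the single-copy genes, the 4 highest and 4 lowest members of each comparison, the pairs with the largest movement and the largest and smallest ratios, and up to 4 of each other list; some of these are given with folds only, and RAP1, FHL1 and IFH1 were added after their values were seen. A few genes that this rule names are not reported here. The procedure was tested on simulated data with changes in highly expressed ORFs only, so recovery at low levels was not covered. Alternatives were pseudocounts of 0.1 and 5, no filter or an RPKM of at least 30, a threshold of 1.5-fold, summed paralogs, pairs with over 50% of shared windows left out, and 3 scalings. Python 3.11.15, pandas 2.3.3, numpy 2.4.6 and SciPy 1.17.1 were used.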

Additional observations from a re-analysis of the deposited data

Results flagged for a closer look

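The genotype effect on the RPS genes had a median near 0 in growing cells and above 0 in starved cells. The median log2 fold of the deletion over wild type was -0.054 for growing cells and 1.48 for starved cells. In growing cells 34 of the 56 genes were below 0, where 41.7% of eligible ORFs were, and 22 were above 0. In starved cells all 56 were above 0, where 45% of eligible ORFs were, so 34 genes had opposite signs and 22 the same sign. The difference was not tested, since each group has 1 library. The growing folds are small, with the largest at 0.54 in size, and their median moved to -0.15 with median-of-ratios scaling. That scaling moved the median over all eligible ORFs to -0.028.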

How the results depend on the processing

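Across 81 alternatives to 17 results, 65 stayed within the set limits, 16 moved and none reversed. The limit was 1.5 times for a count and, for a median, the median half-width of the members' counting intervals (summed over both genotypes for the difference). The other scalings moved the medians. For median-of-ratios, equal-sum and upper-quartile scaling in that order, the RPS median under starvation was -3.07, -2.22 and -2.82 in wild type and -1.42, -0.91 and -1.26 in the deletion, and the difference of both was 1.68, 1.34 and 1.59. Between growing genotypes the median was -0.15 with median-of-ratios and -0.12 with upper-quartile scaling. Between starved genotypes median-of-ratios scaling gave 1.58 and equal-sum scaling 1.33. The count of RPS genes 2-fold lower in the starved deletion, 33 as deposited, was 54 with median-of-ratios scaling, 49 with upper-quartile scaling, 21 with equal-sum scaling and 55 at a threshold of 1.5-fold. The count over all eligible ORFs was 514 as deposited and 926, 748 and 365 with these scalings in that order. The share of all ORFs past 1.5-fold is not given here. Median-of-ratios scaling shifted all folds by -0.53 and -0.34 under starvation in wild type and the deletion. Upper-quartile scaling gave 1470 ORFs higher and 999 lower in starved wild type, and equal-sum scaling 2677 and 601. Counts of moved pairs and the difference between single-copy and paired genes did not move beyond these limits. With a pseudocount of 5, though, 5 pairs were counted under starvation in wild type, against 6. Under starvation in the deletion 3 were counted, against 4, and between starved genotypes 4, against 3. Which pairs are named thus depends in part on the pseudocount. No paired analysis was possible because each group has 1 library, and no library could be left out for the same reason. Depth, estimated only roughly, limits RPS22B most.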
